A study of Mus musculus with 209 samples.

Results

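Ly6C+ monocytes (Mo.6C+) were compared with neutrophils (GN) in mice that had received no cytokine. The comparison rested on 5 monocyte and 5 neutrophil libraries, 10 of the 209 libraries of the study, which were chosen by their sample titles, and it covered all 55011 genes of the count table. Both groups came from C57BL/6 mice of 5 to 8 weeks, with no engineered allele named, that were injected intravenously with 120 µL of PBS. Cells were taken 2 h later, and about 1000 cells per library were sorted in a double sort, lysed and sequenced by the ultra-low-input RNA procedure of the Immunological Genome Project. In the study these libraries are the baseline for mice given IL1b, IL6 or TNFa, so the differences below lie between cell types and not between treatments. The titles place both groups in the spleen, whereas the tissue label of the same libraries names the peritoneal cavity, and the titles were followed. Apart from Ly6C in the name of the monocytes, the labels give neither the gates nor the mice behind each library. The p-values therefore measure the spread between these libraries, which may be partly technical.

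Monocytes and neutrophils descend from shared myeloid progenitors in the bone marrow and are the main phagocytes that move from blood into inflamed tissue. Ly6C+ monocytes carry the receptor for macrophage colony-stimulating factor, leave the marrow through the chemokine receptor Ccr2, and can become macrophages or antigen-presenting cells. Neutrophils are short-lived cells that do not divide. They depend on granulocyte colony-stimulating factor, follow Cxcr2 ligands, and carry antimicrobial proteins in granules that are filled stage by stage while they mature.

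Library totals ran from 4916914 to 6552334 counts in monocytes and from 3603640 to 5377893 in neutrophils, with 19250 to 20789 and 18563 to 20771 genes detected. The normalization factors that correct for differences in composition were 1.21 to 1.26 in monocytes and 0.778 to 0.852 in neutrophils. Scaling by total counts alone therefore raises every fold change of monocytes over neutrophils by 0.61 on the log2 scale. Mitochondrially encoded genes took 0.436% to 0.603% of the counts in monocytes and 0.0251% to 0.0438% in neutrophils. On the main axis of variation (84.5% of the variance) the libraries separated by cell type. On the second (4.21%) neutrophil library 5 stood apart at -55.2, against 10.1 to 20.4 for the other neutrophil libraries and -1.52 to 2.56 for the monocyte libraries.

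The cell types differed across most of the transcriptome. Of 10985 genes with enough counts to test, 4104 (37.4%) were higher in monocytes and 3521 (32.1%) were higher in neutrophils at an adjusted p below 0.05. When the difference had to exceed 2-fold, 2610 genes (23.8%) were higher in monocytes and 1965 (17.9%) were higher in neutrophils. In the following, a gene is said to be higher in a cell type beyond 2-fold only if it passed this stricter test. The counts per list below are to be read beside the shares of 23.8% and 17.9%, which several of them lie near. The highest library of the lower cell type stayed below the lowest library of the higher one for 6524 genes (59.4%). Called differences above 100-fold numbered 235 in favour of monocytes and 147 in favour of neutrophils. Among called genes, 69 had no count in any neutrophil library and 32 had none in any monocyte library. The median log2 fold change over all tested genes was 0.19. With total-count scaling, 75% of the genes called beyond 2-fold were higher in monocytes, against 57.0% with the composition correction. That scaling called 3817 of 10985 genes higher in monocytes beyond 2-fold and 1269 higher in neutrophils. List counts with total-count scaling are to be read beside these numbers. Without neutrophil library 5, the stricter test called 2812 genes higher in monocytes and 2007 higher in neutrophils.

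**Figure D1:**
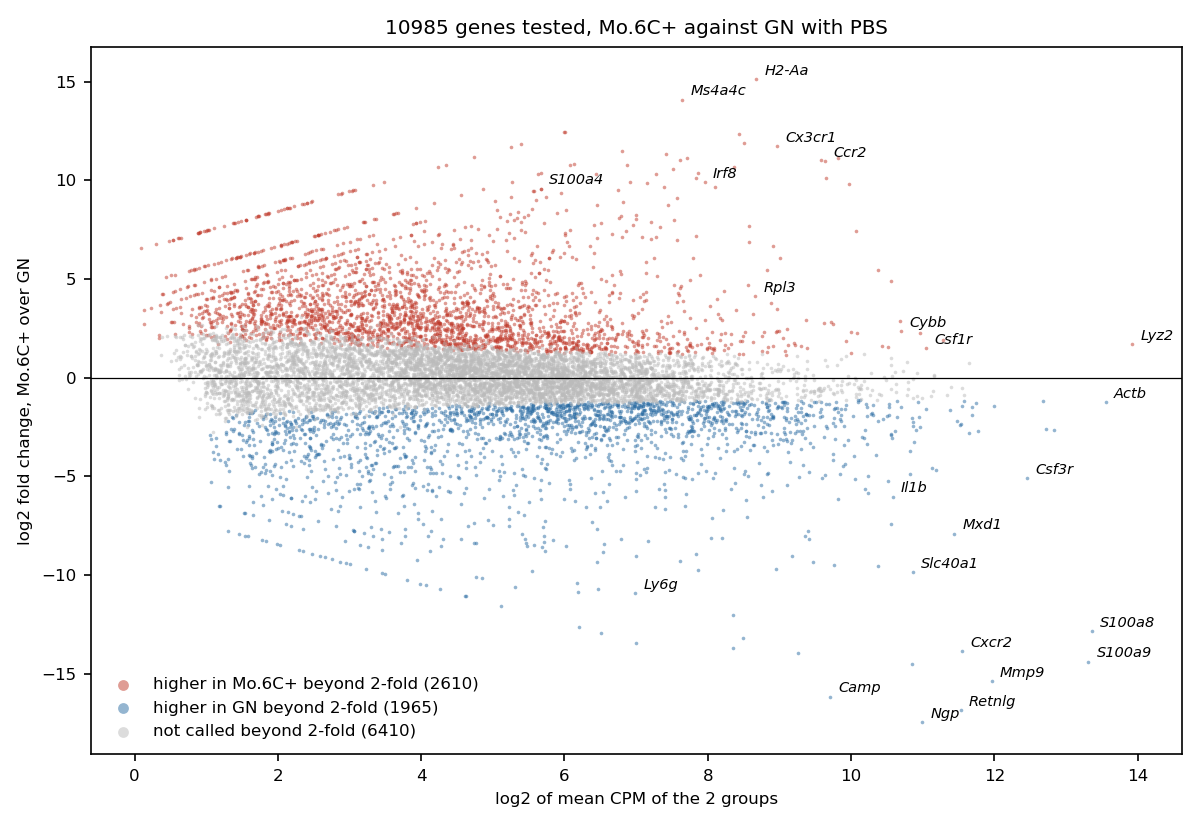
Log2 fold change of Mo.6C+ over GN (vertical axis) against the log2 of the mean CPM, defined below, of the 2 groups (horizontal axis) for the tested genes, with genes called beyond 2-fold in colour. The 2610 genes higher in Mo.6C+ lie above the line at 0 and the 1965 genes higher in GN lie below it, and for genes at 0 in one cell type the plotted fold depends on the small count added by the fit.

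Values below are counts scaled to a library of 1000000 counts after composition correction (CPM). A ± after a mean CPM is the standard deviation over 5 libraries, and a ± after a log2 fold change of monocytes over neutrophils is its standard error. Where one cell type was at or near 0, levels are given in place of a fold, because a fold then turns on a few counts. In such bulk libraries, fewer cells that express a gene and less RNA per cell cannot be told apart.

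The genes by which the cell types are usually recognised lay in the cell types named by the labels. Csf1r, the receptor for macrophage colony-stimulating factor, had 2528, 2959.5, 3494, 2993 and 3622 CPM in the monocyte libraries, against 954, 1082, 1002, 1194 and 1292 CPM in the neutrophil libraries. Csf3r, the receptor for granulocyte colony-stimulating factor, had 357, 302, 303, 313 and 307 CPM in the monocyte libraries, against 9643, 11278, 10594, 11027 and 11819.9 CPM in the neutrophil libraries. The libraries of the 2 cell types did not overlap for either receptor, and the log2 fold changes were 1.497 ± 0.12 for Csf1r and -5.10 ± 0.10 for Csf3r (adjusted p beyond 2-fold 3.55e-04 and 1.21e-12). Each receptor was still present in the other cell type, since Csf1r averaged 3119 ± 443 CPM in monocytes and 1105 ± 139 CPM in neutrophils and Csf3r 316 ± 23.3 CPM in monocytes and 10872 ± 818 CPM in neutrophils.

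Of the Ly6 surface proteins that name the cells, Ly6c2 had 771, 458, 419.6, 747 and 662 CPM in the monocyte libraries, against 177, 118, 138, 114 and 53.7 CPM in the neutrophil libraries. Ly6g, the usual neutrophil surface marker, had 0.137, 0, 0, 0.166 and 0.254 CPM in the monocyte libraries, against 461, 246, 279, 203 and 76.0 CPM in the neutrophil libraries. Every neutrophil library was thus above every monocyte library for Ly6g, by a wide margin, while Ly6c2 was higher in monocytes by 2.34 ± 0.27 on the log2 scale (adjusted p beyond 2-fold 8.44e-05) and was present in neutrophils too. Ly6c1, a near-identical neighbour, stayed at 1.03 ± 0.365 CPM in monocytes and 0.338 ± 0.305 CPM in neutrophils and was too low to test. Ly6c2 (chr15:75108158-75111970, minus strand) and Ly6g (chr15:75155240-75159126, plus strand; mm10 coordinates from GENCODE vM21) are neighbours in the same gene cluster and were high in opposite cell types.

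Some chemokine receptors were nearly absent from one cell type. Ccr2 had 1673, 1439, 1214, 2085 and 1565 CPM in the monocyte libraries, against 1.88, 0.268, 0.844, 0 and 0.684 CPM in the neutrophil libraries. Cx3cr1, the fractalkine receptor, had 737, 980.0, 1053, 1085 and 1159 CPM in the monocyte libraries, against 0.236, 0.268, 0, 0.831 and 0 CPM in the neutrophil libraries. Cxcr2, the neutrophil receptor for CXC chemokines, had 1.09, 0.773, 0, 0 and 0 CPM in the monocyte libraries, against 5556, 6240.5, 6351, 5523 and 6383 CPM in the neutrophil libraries. No neutrophil library exceeded 2 CPM for Ccr2 or 1 CPM for Cx3cr1, and no monocyte library exceeded 2 CPM for Cxcr2. The adjusted p beyond 2-fold was 1.25e-11 for Ccr2, 2.88e-12 for Cx3cr1 and 1.12e-11 for Cxcr2.

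**Figure D2:**
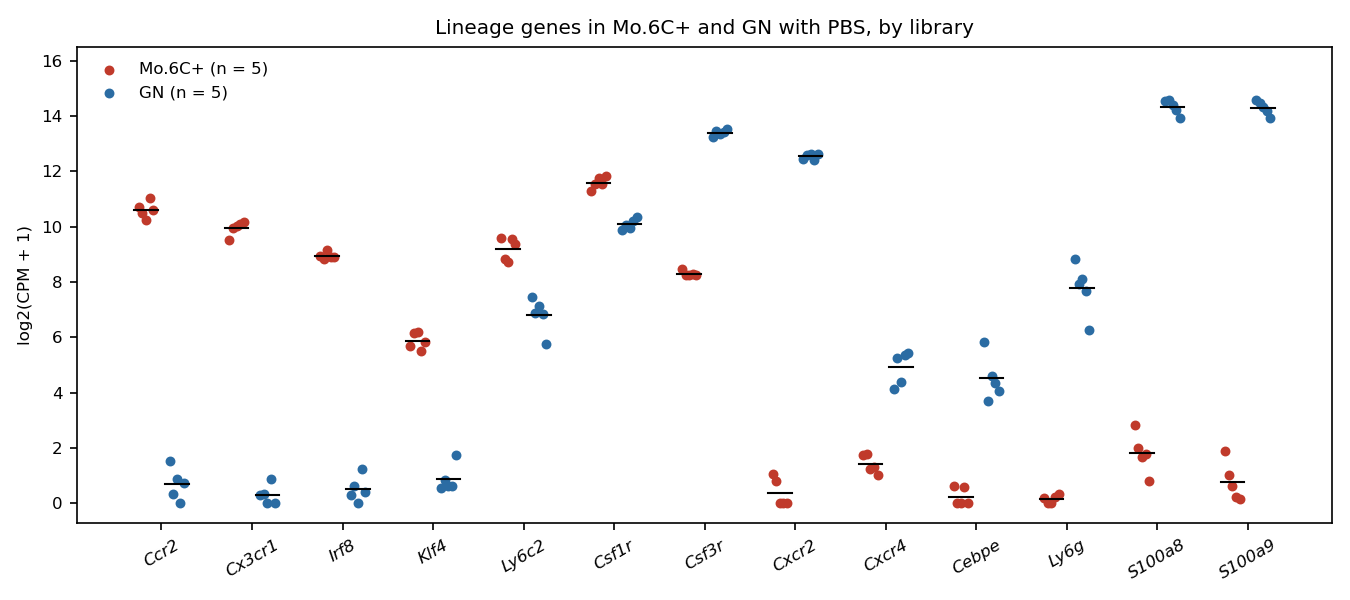
Level of the lineage genes in each library, as log2 of CPM plus 1 (vertical axis), with Mo.6C+ libraries left of GN libraries for each gene, and a bar at each group's mean. Ccr2, Cx3cr1, Irf8 and Klf4 are high in Mo.6C+ and close to 0 in GN, Ly6g, Cxcr2, S100a8 and S100a9 show the opposite, and Csf1r and Ly6c2 are present in both.

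Markers of other cells were looked at next. All 10 monocyte markers were detected in monocytes, with a summed level of 11319 to 13391 CPM against 1196 to 1517 CPM in neutrophils. Of the 10 neutrophil markers, the sum in monocytes was 417 to 658 CPM, most of it Csf3r and Mmp8, against 64289 to 102942 CPM in neutrophils, and 7 of them averaged under 1 CPM in monocytes. The 6 markers of the Ly6C-low monocyte subset were all detected in the sorted monocytes, with sums of 1527 to 2903 CPM against 186 to 337 CPM in neutrophils. Among them, Adgre4 had 318, 504, 643, 447 and 365 CPM in the monocyte libraries, against 0, 0.536, 1.13, 0 and 0.342 CPM in the neutrophil libraries, and Ace averaged 419 ± 129 CPM in monocytes and 0.169 ± 0.159 CPM in neutrophils. Of the 7 NK cell markers, 3 averaged under 1 CPM in monocytes, and the sum was 61.7 and 71.2 CPM in monocyte libraries 2 and 3 and 0.497 to 15.6 CPM in the other monocyte libraries, against 0.554 to 3.76 CPM in neutrophils. The 9 T cell markers, 2 of which averaged under 1 CPM in monocytes, summed to 53.7 and 46.3 CPM in monocyte libraries 2 and 3 and to 8.21 to 24.7 CPM in the other monocyte libraries, against 17.9 to 29.0 CPM in neutrophils. Markers of conventional dendritic cells summed to 145 to 392 CPM in monocytes, led by Cd209a and Flt3, against 9.42 to 20.8 CPM in neutrophils, while 2 of the 8, Xcr1 and Ccr7, averaged under 1 CPM in monocytes. The eosinophil sum of 71.8 to 106 CPM in neutrophils came from Siglecf and Ccr3, with Epx, Prg2, Ear6 and Il5ra each under 1 CPM there, against 0.408 to 2.32 CPM in monocytes. B cell markers, with most of the sum from Ighm, summed to 349 to 387 CPM in monocytes and 476 to 695 CPM in neutrophils, and plasma cell markers, with most of the sum from Xbp1, to 659 to 742 CPM in monocytes and 349.6 to 668 CPM in neutrophils. Macrophage markers, with most of the sum from Adgre1, summed to 392 to 506 CPM in monocytes and 128 to 240.5 CPM in neutrophils, and those of plasmacytoid dendritic cells, with most of the sum from Bst2 and Tcf4, to 216 to 274 CPM in monocytes and 12.7 to 18.8 CPM in neutrophils. Markers of mast cells and basophils, erythroid cells and platelets summed to at most 7.35 CPM in a monocyte library and 12.01 CPM in a neutrophil library. The part of such cells in the differences below was not tested.

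Transcription factors of the myeloid lineages went both ways, with 10 of 29 tested higher in monocytes beyond 2-fold and 9 higher in neutrophils (median log2 fold change 0.37). Irf8, which directs progenitors towards monocytes and dendritic cells, had 490.4, 457, 572, 484 and 479 CPM in the monocyte libraries, against 0.236, 0.536, 0, 1.39 and 0.342 CPM in the neutrophil libraries. Klf4, which is needed for Ly6C+ monocytes, had 50.2, 70.9, 73.2, 44.4 and 56.0 CPM in the monocyte libraries, against 0.471, 0.804, 0.563, 0.554 and 2.40 CPM in the neutrophil libraries. Irf4 and Tcf4 were also higher in monocytes beyond 2-fold, with 46.4 ± 10.4 CPM in monocytes and 0.365 ± 0.436 CPM in neutrophils for Irf4 and 104 ± 11.2 CPM in monocytes and 3.39 ± 0.764 CPM in neutrophils for Tcf4. On the neutrophil side, Mxd1, a partner of Max that opposes Myc, had 32.6, 21.1, 27.3, 15.2 and 19.6 CPM in the monocyte libraries, against 4598, 5124, 6699.8, 5539.7 and 5599 CPM in the neutrophil libraries, a log2 fold change of -7.89 ± 0.22. Cebpe, which drives the late stages of granulocyte maturation, had 0.547, 0, 0, 0.497 and 0 CPM in the monocyte libraries, against 56.5, 12.1, 23.4, 19.7 and 15.7 CPM in the neutrophil libraries. Every neutrophil library was above every monocyte library for both, and neutrophil library 1 was the highest for Cebpe. Spi1, which encodes PU.1 and is needed in both lineages, was higher in neutrophils (194 ± 11.4 CPM in monocytes and 767 ± 207 CPM in neutrophils; log2 fold change -1.98 ± 0.16). Cebpa did not pass the test (17.8 ± 2.84 CPM in monocytes and 14.4 ± 4.53 CPM in neutrophils; adjusted p 0.36), and under total-count scaling it was called higher in monocytes with a log2 fold change of 0.93.

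Among the receptors for haematopoietic growth factors, 3 of 10 were higher in monocytes and 3 in neutrophils beyond 2-fold. Besides Csf1r, Flt3 was higher in monocytes (88.6 ± 25.7 CPM in monocytes and 4.65 ± 2.89 CPM in neutrophils). Besides Csf3r, Tgfbr2 (69.8 ± 7.37 CPM in monocytes and 262 ± 18.4 CPM in neutrophils) and Csf2rb, the shared signalling chain of the receptors for GM-CSF, IL3 and IL5 (379 ± 72.7 CPM in monocytes and 1015 ± 142 CPM in neutrophils), were higher in neutrophils. The call for Csf2rb beyond 2-fold was lost with total-count scaling, with no filter on low counts and with DESeq2.

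Of 21 tested chemoattractant receptors, 6 were higher in monocytes and 11 in neutrophils beyond 2-fold (median log2 fold change -2.81). Monocytes carried more of S1pr5, which guides the egress of Ly6C-low monocytes and NK cells (75.2 ± 25.1 CPM in monocytes and 0.207 ± 0.285 CPM in neutrophils), and of Gpr183, a receptor for oxysterols (67.9 ± 8.32 CPM in monocytes and 2.46 ± 2.02 CPM in neutrophils). Markers of Ly6C-low monocytes and of NK cells were detected in the sorted monocytes, and their part in the S1pr5 level was not tested. Neutrophils carried more of the receptors for classical chemoattractants. The formyl peptide receptor Fpr1 had 5.60 ± 0.924 CPM in monocytes and 740.4 ± 132 CPM in neutrophils (log2 fold change -7.04 ± 0.18), the complement C5a receptor C5ar1 had 41.6 ± 17.2 CPM in monocytes and 2377 ± 64.7 CPM in neutrophils (-5.83 ± 0.29), the receptor for platelet-activating factor Ptafr had 200.3 ± 19.2 CPM in monocytes and 1783 ± 210.5 CPM in neutrophils (-3.15 ± 0.11), and the chemokine receptor Ccr1 had 60.9 ± 32.5 CPM in monocytes and 1774 ± 163 CPM in neutrophils (-4.87 ± 0.35). Cxcr4, which retains neutrophils in the marrow and marks aged ones, had 2.33, 2.45, 1.36, 1.49 and 1.02 CPM in the monocyte libraries, against 16.7, 37.0, 19.99, 39.9 and 42.8 CPM in the neutrophil libraries, a log2 fold change of -4.16 ± 0.40, without overlap.

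Adhesion molecules were evenly divided, with 5 of 20 higher in each cell type beyond 2-fold, beside 23.8% and 17.9% of all tested genes. Vcan, a matrix proteoglycan typical of Ly6C+ monocytes (95.0 ± 32.5 CPM in monocytes and 1.58 ± 1.60 CPM in neutrophils), the collagen-binding integrin chain Itga1 (28.2 ± 9.54 CPM in monocytes and 0.780 ± 1.145 CPM in neutrophils) and the sialomucin Spn (88.5 ± 18.8 CPM in monocytes and 20.8 ± 2.79 CPM in neutrophils) were higher in monocytes. The ligand of P-selectin, Selplg (945 ± 63.9 CPM in monocytes and 4933 ± 443 CPM in neutrophils; log2 fold change -2.38 ± 0.09), the hyaluronan receptor Cd44 (795 ± 17.3 CPM in monocytes and 3161 ± 403 CPM in neutrophils; -1.99 ± 0.10) and Cd24a (7.01 ± 3.15 CPM in monocytes and 408 ± 84.1 CPM in neutrophils; -5.87 ± 0.28) were higher in neutrophils. Itgam, which encodes CD11b and is used to gate both cell types, was -1.47 ± 0.12 on the log2 scale, but 68.7% of its annotated exon bases are shared with another gene, and total-count scaling or no filter on low counts ended its call beyond 2-fold.

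Granule and secretory proteins of neutrophils had the lowest median of the 28 lists (-4.51 on the log2 scale), with 19 of 28 tested genes higher in neutrophils beyond 2-fold and 5 higher in monocytes. The calgranulins S100a8 and S100a9, calcium-binding proteins that neutrophils store in their cytosol, were at the top. S100a8 had 6.16, 2.96, 2.18, 2.48 and 0.762 CPM in the monocyte libraries, against 24189, 24521, 21403, 19096 and 15803 CPM in the neutrophil libraries. S100a9 had 2.74, 1.03, 0.544, 0.166 and 0.127 CPM in the monocyte libraries, against 24333, 22939.6, 20501, 18409 and 15596 CPM in the neutrophil libraries. The lowest neutrophil library held 15803 CPM of S100a8 and 15596 CPM of S100a9, and the highest monocyte library held 6.16 CPM of S100a8 and 2.74 CPM of S100a9. The gelatinase Mmp9 had 0, 0.129, 0.680, 0 and 0 CPM in the monocyte libraries, against 8668, 7822, 7584, 8558 and 7281 CPM in the neutrophil libraries, and the resistin-like protein Retnlg had 0, 0, 0.136, 0 and 0 CPM in the monocyte libraries, against 7173, 6704, 6990.0, 4781 and 3874 CPM in the neutrophil libraries. For these 4 genes the neutrophil libraries lay within 2-fold of each other.

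Among the genes for the proteins of the secondary granules, which are made only in late marrow precursors, Ngp, Camp and Ltf varied far more. Ngp, the neutrophilic granule protein, had 0, 0, 0, 0 and 0 CPM in the monocyte libraries, against 13131, 1586, 4563, 472 and 554 CPM in the neutrophil libraries. Camp, the precursor of the antimicrobial peptide cathelicidin, had 0, 0, 0, 0 and 0 CPM in the monocyte libraries, against 5530.4, 587, 1795, 161 and 253 CPM in the neutrophil libraries. Ltf, the iron-binding lactoferrin, had 0, 0, 0.544, 0 and 0.127 CPM in the monocyte libraries, against 12021, 1003, 4431, 638 and 432 CPM in the neutrophil libraries. In all 3 the order of the neutrophil libraries began with libraries 1, 3 and 2, and libraries 4 and 5 were lowest. Taken against the floor of 3 counts per library, Ngp was at least 9749-fold higher in neutrophils and Camp at least 3998-fold. Without neutrophil library 1, the neutrophil mean fell to 1794 CPM for Ngp, 699 CPM for Camp and 1626 CPM for Ltf, against 4061, 1665 and 3705 CPM with it, and the bounds were 4306-fold for Ngp and 1678-fold for Camp. Lcn2, which binds bacterial siderophores, had 6.70, 0.515, 0.408, 2.65 and 0.762 CPM in the monocyte libraries, against 1773, 1151, 1522, 751 and 602 CPM in the neutrophil libraries, and Mmp8, the neutrophil collagenase, had 291, 161, 114, 228 and 108 CPM in the monocyte libraries, against 5367, 4687, 5679, 3066 and 2771 CPM in the neutrophil libraries.

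**Figure D3:**
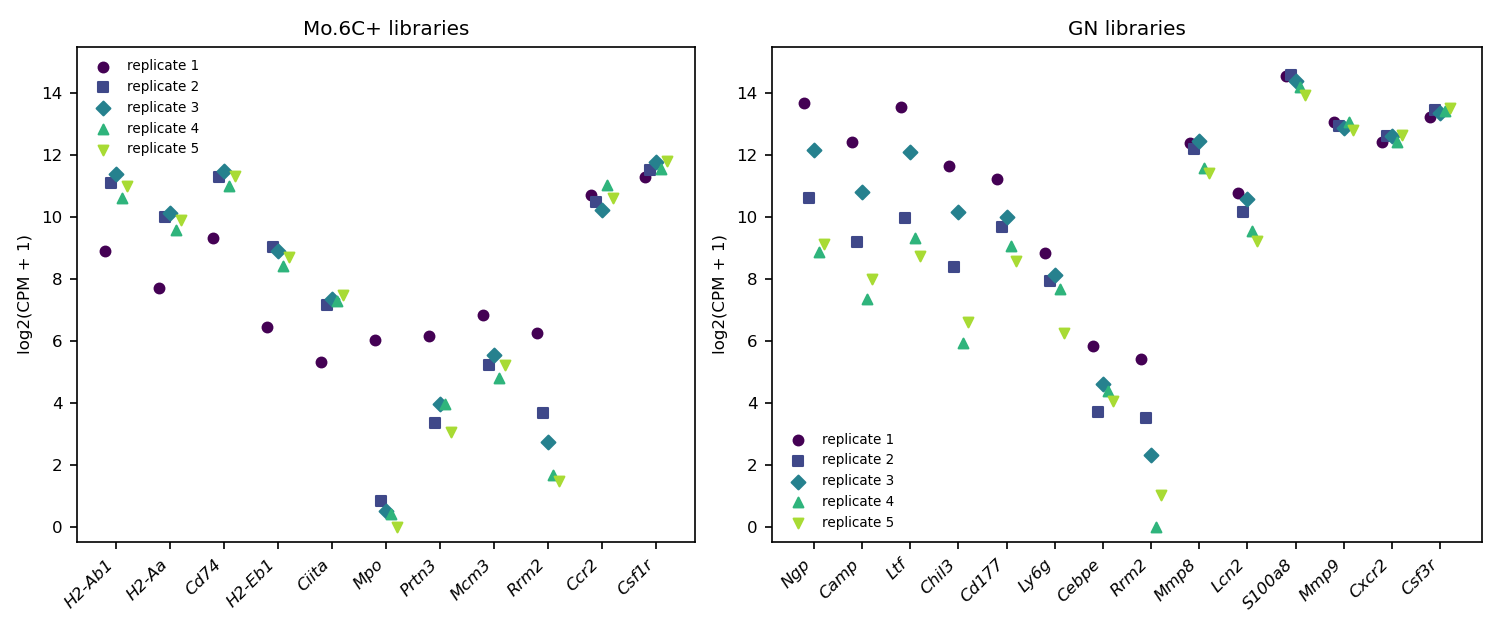
Level of single genes in each library, as log2 of CPM plus 1 (vertical axis), with the 5 Mo.6C+ libraries in the left panel and the 5 GN libraries in the right one, each library with its own symbol. GN library 1 is highest for Ngp, Camp and Ltf but not for Mmp8, and Mo.6C+ library 1 is lowest for the class II genes and highest for Mpo and the cell cycle genes.

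The promoters of Ngp and Ltf are shown as examples of granule genes whose windows hold letters of the C/EBP motif. The motif, TTGCNNAA, was searched on both strands. The windows span 250 bases before to 50 after the start of the gene in RefSeq (GRCm38.p6), at chr9:110419558-110419857 for Ngp and chr9:111019042-111019341 for Ltf, both on the plus strand, and the capitals mark the matches.
Ngp: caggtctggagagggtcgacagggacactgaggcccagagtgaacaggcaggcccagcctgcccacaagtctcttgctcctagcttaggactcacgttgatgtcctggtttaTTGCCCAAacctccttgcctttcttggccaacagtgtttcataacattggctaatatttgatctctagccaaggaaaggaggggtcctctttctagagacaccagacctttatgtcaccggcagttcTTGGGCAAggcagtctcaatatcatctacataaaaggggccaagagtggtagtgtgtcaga
Ltf: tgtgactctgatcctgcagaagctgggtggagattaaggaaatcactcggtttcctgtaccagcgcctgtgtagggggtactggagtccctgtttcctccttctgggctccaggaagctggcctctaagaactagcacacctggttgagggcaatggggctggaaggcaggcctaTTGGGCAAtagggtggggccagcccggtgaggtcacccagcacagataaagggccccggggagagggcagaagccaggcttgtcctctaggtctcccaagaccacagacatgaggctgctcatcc
In Ngp the matches begin 138 bases and 11 bases before the start, and in Ltf the match begins 75 bases before it. Of 31 granule genes with a promoter in the table, 11 (35.5%) held the motif, beside 12.2% of all 27025 promoters, 10.2% of the promoters of genes higher in monocytes beyond 2-fold and 12.4% of those higher in neutrophils. The holders included Retnlg, S100a9, Mmp8 and Lcn2, whereas Camp, Chil3 and Cd177 were not among them. A link between the motif and the order of the neutrophil libraries was not tested. A match describes the letters of the window and does not show that a factor binds there.

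Not every granule gene was a neutrophil gene. Chil3, which encodes a chitinase-like protein, had 1369.8, 758, 1137, 1134 and 702 CPM in the monocyte libraries, against 3233, 331, 1147, 59.8 and 96.1 CPM in the neutrophil libraries. Its 2 groups overlapped and its test gave an adjusted p of 0.946. Neutrophil libraries 1, 3 and 2 were again the highest of their group. The neutrophil mean was 408 CPM without library 1, against 973 CPM with it. Cd177, a neutrophil surface protein that binds proteinase 3, had 436, 386, 375, 605 and 507 CPM in the monocyte libraries, against 2423, 816, 1033, 533 and 383 CPM in the neutrophil libraries, again with overlap and with neutrophil library 1 on top. It was higher in neutrophils (log2 fold change -1.17 ± 0.39, adjusted p 0.015) but not beyond 2-fold. That call for Cd177 was lost with total-count scaling and with a block for replicate number. Lyz2, lysozyme, was higher in monocytes (24567, 20659.8, 20661, 26247 and 27227 CPM in the monocyte libraries, against 11425, 8683, 7181, 4967 and 4109 CPM in the neutrophil libraries; log2 fold change 1.71 ± 0.23).

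Genes of the primary granules, made in the earliest granulocyte precursors and in monocyte progenitors, were nearly silent in neutrophils. The serine protease Prtn3 had 70.0, 9.15, 14.6, 14.6 and 7.24 CPM in the monocyte libraries, against 0.236, 0.804, 1.41, 0.554 and 0.342 CPM in the neutrophil libraries and was called higher in monocytes, with a log2 fold change of 5.07, or 4.10 without monocyte library 1. Mpo, myeloperoxidase, had 64.6, 0.773, 0.408, 0.331 and 0 CPM in the monocyte libraries, against 0, 0, 1.13, 0.554 and 1.03 CPM in the neutrophil libraries, and Elane, neutrophil elastase, had 35.0, 0.387, 0.272, 0 and 0 CPM in the monocyte libraries, against 0, 0, 0.281, 0 and 0 CPM in the neutrophil libraries. Monocyte library 1 alone carried Mpo and Elane, and both genes fell short of the filter on low counts.

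The S100 family on chromosome 3 was split between the cells. S100a11 was higher in neutrophils with S100a8 and S100a9 (55.6 ± 9.90 CPM in monocytes and 1074 ± 189 CPM in neutrophils; log2 fold change -4.27 ± 0.17). S100a4 (102 ± 15.9 CPM in monocytes and 0.0942 ± 0.211 CPM in neutrophils) and S100a10, a partner of annexin A2 (256 ± 41.6 CPM in monocytes and 0.938 ± 1.66 CPM in neutrophils), were higher in monocytes, although 51.7% of the annotated exon bases of S100a4 are shared with another gene.

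Class II antigen presentation had the highest median of the 28 lists (6.41 on the log2 scale). Of 14 tested genes, 11 were higher in monocytes beyond 2-fold and 1 in neutrophils. The class II alpha chain H2-Aa had 207, 1020.4, 1135, 763 and 964 CPM in the monocyte libraries, against 0, 0, 0, 0 and 0 CPM in the neutrophil libraries, at least 971-fold higher in monocytes. The beta chain H2-Ab1 had 477, 2214, 2672, 1573 and 2061 CPM in the monocyte libraries, against 0.707, 0.536, 0, 0 and 3.08 CPM in the neutrophil libraries. Cd74, the invariant chain, had 642, 2516, 2891, 2035 and 2552 CPM in the monocyte libraries, against 9.89, 8.31, 19.4, 11.6 and 13.002 CPM in the neutrophil libraries, a log2 fold change of 7.42 ± 0.42. Ciita, the transactivator on which class II genes depend, had 38.6, 141, 164, 157 and 178 CPM in the monocyte libraries, against 2.36, 2.41, 0.281, 3.88 and 0.342 CPM in the neutrophil libraries, a log2 fold change of 6.13 ± 0.53. All monocyte libraries were above all neutrophil libraries for these 4 genes, and monocyte library 1 was the lowest monocyte library for each of them. The summed markers of conventional dendritic cells were also lowest in that library, at 145 CPM against 331 to 392 CPM in the other monocyte libraries, and their part in the class II levels was not tested. The peptide-loading chaperone H2-DMa (376 ± 56.7 CPM in monocytes and 3.01 ± 1.36 CPM in neutrophils) and the costimulatory receptor Cd40 (66.4 ± 13.2 CPM in monocytes and 0.325 ± 0.209 CPM in neutrophils) were also higher in monocytes, and so was the invariant chain protease cathepsin S, Ctss (2908 ± 248 CPM in monocytes and 96.5 ± 36.2 CPM in neutrophils; log2 fold change 4.92 ± 0.22). The exception was Cd80, a ligand of CD28, which was higher in neutrophils (9.99, 8.89, 5.85, 6.79 and 11.9 CPM in the monocyte libraries, against 65.0, 71.6, 77.7, 41.6 and 59.9 CPM in the neutrophil libraries; -2.85 ± 0.25, adjusted p beyond 2-fold 3.99e-06).

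The promoters of H2-Aa and H2-Eb1, a second class II beta chain (369.6 ± 172 CPM in monocytes and 1.53 ± 1.90 CPM in neutrophils), are shown for the Y box, CTGATTGG, an element of class II promoters. The windows are at chr17:34287774-34288073 on the minus strand for H2-Aa and chr17:34305617-34305916 on the plus strand for H2-Eb1, again from RefSeq (GRCm38.p6), and the capitals mark the Y box.
H2-Aa: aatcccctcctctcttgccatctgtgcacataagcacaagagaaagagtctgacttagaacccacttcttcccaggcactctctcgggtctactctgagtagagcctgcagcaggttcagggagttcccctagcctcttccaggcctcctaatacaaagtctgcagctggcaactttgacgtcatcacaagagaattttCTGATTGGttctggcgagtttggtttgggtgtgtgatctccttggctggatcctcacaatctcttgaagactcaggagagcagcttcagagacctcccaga
H2-Eb1: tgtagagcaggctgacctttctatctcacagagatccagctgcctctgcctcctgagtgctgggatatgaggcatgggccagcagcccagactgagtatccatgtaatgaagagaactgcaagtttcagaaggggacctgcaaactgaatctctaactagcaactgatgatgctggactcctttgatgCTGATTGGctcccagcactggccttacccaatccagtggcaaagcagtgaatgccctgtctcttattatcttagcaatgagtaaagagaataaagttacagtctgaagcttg
The Y box begins 51 bases before the start in H2-Aa and 62 bases before it in H2-Eb1. It was found on either strand in 3 of 10 class II genes with a promoter in the table and in 0 of 31 granule genes, beside 4.70% of all promoters, 7.29% of those of genes higher in monocytes beyond 2-fold and 6.17% of those higher in neutrophils.

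Class I presentation was close to even. Of 18 genes, 4 were higher in monocytes beyond 2-fold and 1, H2-D1, in neutrophils, while 6 passed no test (median log2 fold change 0.37). Over all tested genes the shares beyond 2-fold were 23.8% and 17.9%. The immunoproteasome subunit Psmb10 was higher in monocytes (143 ± 12.9 CPM in monocytes and 23.3 ± 7.59 CPM in neutrophils; log2 fold change 2.62 ± 0.21). H2-D1 had 3433, 3981, 4484, 3632 and 4630.3 CPM in the monocyte libraries, against 9201, 8780.3, 8779, 8268 and 10197 CPM in the neutrophil libraries (-1.17 ± 0.10, adjusted p beyond 2-fold 0.0419). That call was lost in 7 of the 10 fits that left out 1 library and with 5 other settings, and with total-count scaling 8 genes were higher in monocytes and 0 in neutrophils. The light chain B2m averaged 2397 ± 283 CPM in monocytes and 2176 ± 381 CPM in neutrophils, with overlapping groups and an adjusted p of 0.326. H2-K1 averaged 1702 ± 303 CPM in monocytes and 1417 ± 257 CPM in neutrophils (adjusted p 0.119). With total-count scaling or no filter on low counts, both were called higher in monocytes. H2-K1 was also called higher in monocytes with DESeq2 (adjusted p 0.0301), with its size factors (0.0392), without monocyte library 1 (0.0126) and without neutrophil library 5 (0.0271).

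**Figure D4:**
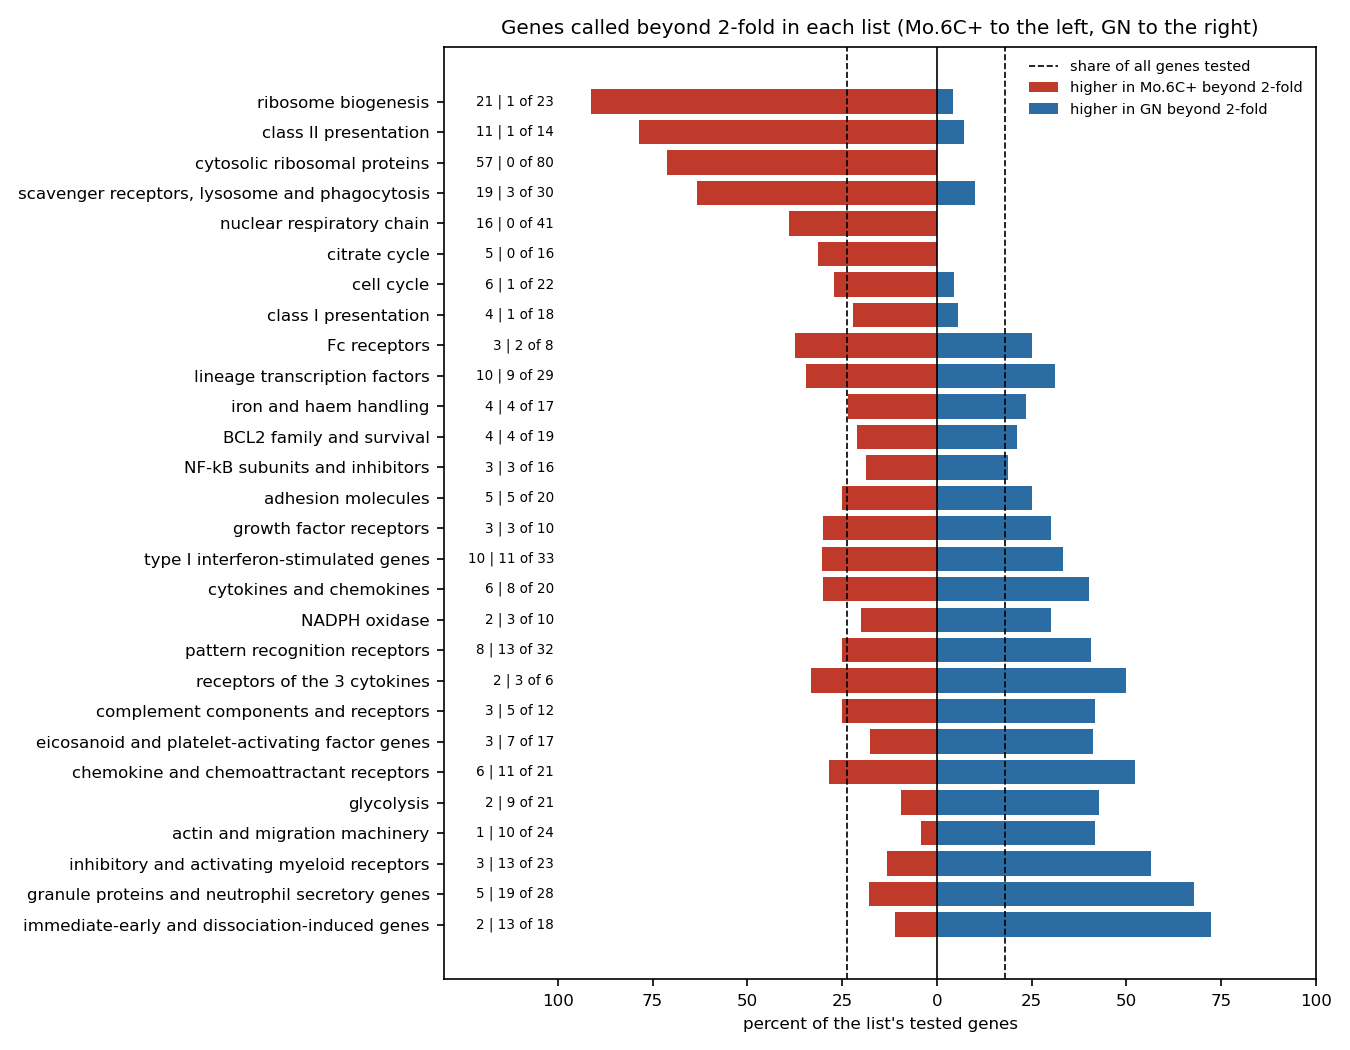
Percentage of the tested genes of each list that were higher in Mo.6C+ (bars to the left) or higher in GN (bars to the right) beyond 2-fold, with dashed lines at the shares over all tested genes, 23.8% and 17.9%. Ribosome biogenesis, class II presentation and ribosomal proteins reach far past the line for Mo.6C+, and immediate-early genes, granule proteins and paired receptors reach far past the line for GN.

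Pattern recognition receptors were found on both sides, with 8 of 32 higher in monocytes and 13 in neutrophils beyond 2-fold (median log2 fold change -0.60). Monocytes had more of the endosomal nucleic acid sensors Tlr9 (66.7 ± 10.3 CPM in monocytes and 0.141 ± 0.316 CPM in neutrophils) and Tlr7 (195 ± 27.3 CPM in monocytes and 41.0 ± 23.4 CPM in neutrophils), of Ly86, which pairs with Cd180 (392 ± 35.1 CPM in monocytes and 0.158 ± 0.244 CPM in neutrophils), and of the flagellin-responsive inflammasome protein Nlrc4 (42.1 ± 7.20 CPM in monocytes and 0.422 ± 0.488 CPM in neutrophils). Neutrophils had more of the lipopolysaccharide receptor Tlr4 (26.3 ± 5.39 CPM in monocytes and 125 ± 36.8 CPM in neutrophils; log2 fold change -2.25 ± 0.21) and its co-receptor Cd14 (44.4 ± 7.03 CPM in monocytes and 177 ± 78.5 CPM in neutrophils; -1.997 ± 0.27). The inflammasome sensor Nlrp3 had 43.4, 46.6, 37.8, 32.3 and 32.6 CPM in the monocyte libraries, against 321, 401, 389.6, 302 and 411 CPM in the neutrophil libraries (-3.24 ± 0.15), and Nlrp12 had 0.684, 0, 0.408, 4.97 and 0.508 CPM in the monocyte libraries, against 975, 993, 942, 945 and 1076 CPM in the neutrophil libraries. The groups did not overlap for Nlrp3 or Nlrp12. The call for Tlr7 was lost with DESeq2 and that for Cd14 with total-count scaling. Tlr2 was higher in neutrophils but not beyond 2-fold (-0.91 ± 0.13), and that call was lost with total-count scaling (-0.29, adjusted p 0.0582).

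The C-type lectins of the Clec4 cluster on chromosome 6 were split. Clec4a1 (357 ± 36.0 CPM in monocytes and 24.9 ± 6.44 CPM in neutrophils; log2 fold change 3.84 ± 0.17) and Clec4a3 (614 ± 68.5 CPM in monocytes and 57.3 ± 13.2 CPM in neutrophils; 3.43 ± 0.16) were higher in monocytes. Clec4d (13.4 ± 4.04 CPM in monocytes and 864 ± 187 CPM in neutrophils; -6.02 ± 0.24) and Clec4e, which senses mycobacterial glycolipid and dead cells (114 ± 22.4 CPM in monocytes and 777 ± 87.0 CPM in neutrophils; -2.77 ± 0.15), were higher in neutrophils.

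Among 8 tested Fc receptors, 3 were higher in monocytes and 2 in neutrophils beyond 2-fold. The high-affinity IgG receptor Fcgr1 had 148, 137, 138, 141 and 101 CPM in the monocyte libraries, against 0, 1.61, 4.79, 0 and 0 CPM in the neutrophil libraries. The inhibitory receptor Fcgr2b (485 ± 75.2 CPM in monocytes and 39.3 ± 20.4 CPM in neutrophils; log2 fold change 3.62 ± 0.38) and the neonatal receptor Fcgrt, which salvages IgG (83.9 ± 8.52 CPM in monocytes and 0.377 ± 0.569 CPM in neutrophils), were also higher in monocytes. The activating low-affinity receptors Fcgr3 (549 ± 55.6 CPM in monocytes and 1935 ± 213 CPM in neutrophils; -1.82 ± 0.11) and Fcgr4 (51.2 ± 13.5 CPM in monocytes and 300.0 ± 21.7 CPM in neutrophils; -2.55 ± 0.17) were higher in neutrophils, so that the inhibitory and the activating low-affinity receptors lay in opposite directions.

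Paired receptors of myeloid cells, which signal through inhibitory motifs or the adaptor Tyrobp, leaned to neutrophils. Of 23 tested, 3 were higher in monocytes and 13 in neutrophils beyond 2-fold (median log2 fold change -1.46). Trem1, which amplifies inflammatory signals, had 12.3, 13.7, 14.4, 12.4 and 10.3 CPM in the monocyte libraries, against 591, 579, 662, 631 and 676 CPM in the neutrophil libraries, a log2 fold change of -5.63 ± 0.12. Trem2, a lipid-sensing relative, had 45.7, 44.5, 61.1, 43.5 and 53.3 CPM in the monocyte libraries, against 2.12, 0, 0, 1.94 and 0.342 CPM in the neutrophil libraries. These 2 receptors thus ran in opposite directions without overlap. The inhibitory receptors Cd300lf (58.2 ± 21.9 CPM in monocytes and 2067 ± 186 CPM in neutrophils; -5.15 ± 0.23) and Siglece (26.6 ± 4.19 CPM in monocytes and 637 ± 50.2 CPM in neutrophils; -4.58 ± 0.13) were higher in neutrophils. Cd33 was higher in neutrophils too (77.0 ± 21.7 CPM in monocytes and 2845 ± 434 CPM in neutrophils; -5.21 ± 0.21).

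In the complement system, 3 of 12 tested genes were higher in monocytes and 5 in neutrophils beyond 2-fold, beside 23.8% and 17.9% of all tested genes. The C1q chain C1qb was higher in monocytes (14.3 ± 5.04 CPM in monocytes and 0 ± 0 CPM in neutrophils). The chains C1qa (2.61 ± 2.61 CPM in monocytes and 0.188 ± 0.421 CPM in neutrophils) and C1qc (0.939 ± 1.12 CPM in monocytes and 0.116 ± 0.163 CPM in neutrophils) were too low to test. The second C5a receptor C5ar2 (4.46 ± 1.58 CPM in monocytes and 407 ± 57.8 CPM in neutrophils; log2 fold change -6.52 ± 0.23) and properdin, Cfp (256 ± 74.4 CPM in monocytes and 741 ± 69.4 CPM in neutrophils; -1.53 ± 0.16), were higher in neutrophils. The monocyte count was 5 without neutrophil library 2 and 6 with no filter on low counts, and the neutrophil count was 3 with total-count scaling, which ended the call for Cfp.

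The subunits of the phagocyte NADPH oxidase, which makes superoxide, did not move together. Of 10 genes, 2 were higher in monocytes and 3 in neutrophils beyond 2-fold. Cybb, the catalytic membrane subunit, had 2865, 2577, 2775, 2751 and 2939.9 CPM in the monocyte libraries, against 1270.1, 456, 567, 232 and 201 CPM in the neutrophil libraries, a log2 fold change of 2.35 ± 0.40 (adjusted p beyond 2-fold 0.00167), without overlap. The neutrophil libraries spread over more than 6-fold for Cybb, in the same order as for Ltf. The cytosolic subunit Ncf1 (249 ± 37.9 CPM in monocytes and 1351 ± 158 CPM in neutrophils; -2.44 ± 0.13) and the GTPase Rac2 (608 ± 48.1 CPM in monocytes and 3382 ± 379 CPM in neutrophils; -2.48 ± 0.10) were higher in neutrophils. Cyba, the membrane partner of Cybb, was -0.57 ± 0.10 and turned to 0.0475 with total-count scaling.

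Scavenger receptors and lysosomal genes leaned to monocytes, with 19 of 30 tested higher in monocytes and 3 in neutrophils beyond 2-fold (median log2 fold change 1.71). The scavenger receptor Msr1 had 99.4 ± 11.2 CPM in monocytes and 0.0536 ± 0.120 CPM in neutrophils. The cathepsins Ctsb (2885 ± 235 CPM in monocytes and 399 ± 49.4 CPM in neutrophils; 2.85 ± 0.11) and Ctsc, which activates serine proteases (1012 ± 189 CPM in monocytes and 15.3 ± 6.28 CPM in neutrophils; 6.04 ± 0.26), and the cholesterol carrier Npc2 (1476 ± 90.5 CPM in monocytes and 209 ± 18.3 CPM in neutrophils; 2.82 ± 0.10) were higher in monocytes. The aspartic protease Ctsd went the other way, with 222, 158, 147, 160.4 and 124 CPM in the monocyte libraries, against 2425, 2496, 2319, 2419 and 2516 CPM in the neutrophil libraries, a log2 fold change of -3.91 ± 0.14.

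Iron genes were split 4 to 4 among 17 tested, beside 23.8% and 17.9% of all tested genes. The iron exporter ferroportin, Slc40a1, had 1.09, 0.258, 2.72, 3.31 and 12.3 CPM in the monocyte libraries, against 3814, 3362, 3592, 3887 and 3969 CPM in the neutrophil libraries, and was higher in neutrophils without overlap. The ferrireductase Steap4 had 0, 0, 0, 0 and 0 CPM in the monocyte libraries, against 126, 118, 113, 140.5 and 238 CPM in the neutrophil libraries and was at least 353-fold higher in neutrophils. Ferritin heavy chain, Fth1, was higher in neutrophils too (1419.9 ± 209 CPM in monocytes and 5209 ± 836 CPM in neutrophils; -1.88 ± 0.13). Hfe, which regulates iron sensing, was higher in monocytes (220.2 ± 59.7 CPM in monocytes and 0.845 ± 1.48 CPM in neutrophils). The haem-degrading enzyme Hmox1 did not pass the test (168 ± 30.3 CPM in monocytes and 172 ± 40.2 CPM in neutrophils; adjusted p 0.874), and its log2 fold change of -0.03 became 0.59 with total-count scaling.

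Even in mice given PBS only, neutrophils held high levels of Il1b transcripts. Of 20 tested cytokines and chemokines, 6 were higher in monocytes and 8 in neutrophils beyond 2-fold (median log2 fold change -0.98), and the list held 35 genes in all, the rest being too low to test. Il1b had 20.2, 43.9, 56.9, 49.5 and 61.1 CPM in the monocyte libraries, against 2233, 2687, 2931, 3495 and 3716 CPM in the neutrophil libraries, a log2 fold change of -6.02 ± 0.28 (adjusted p beyond 2-fold 8.78e-10). Its antagonist Il1rn had 31.9, 33.2, 42.7, 40.1 and 35.4 CPM in the monocyte libraries, against 1264, 1081, 1308, 1175 and 1185 CPM in the neutrophil libraries (-5.04 ± 0.12). The groups did not overlap for either. Csf1, the ligand of Csf1r (3.23 ± 1.13 CPM in monocytes and 335 ± 68.0 CPM in neutrophils; -6.67 ± 0.25), Tnfsf14 (27.0 ± 5.56 CPM in monocytes and 704 ± 91.5 CPM in neutrophils; -4.71 ± 0.17), Osm (2.10 ± 1.56 CPM in monocytes and 66.5 ± 21.4 CPM in neutrophils; -4.98 ± 0.55) and the chemokine Ccl6 (814 ± 84.2 CPM in monocytes and 5575 ± 116 CPM in neutrophils; -2.78 ± 0.09) were higher in neutrophils as well.

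Chemokines of monocytes included Ccl9 (366 ± 44.8 CPM in monocytes and 20.4 ± 6.19 CPM in neutrophils; 4.17 ± 0.20) and Ccl5 (30.1, 116, 98.1, 21.7 and 33.1 CPM in the monocyte libraries, against 1.18, 0.268, 0.281, 1.66 and 0 CPM in the neutrophil libraries). Monocyte libraries 2 and 3, which had the highest marker sums of NK cells and of T cells, had the highest Ccl5, and the part of these cells in this was not tested. Tnf did not pass the test (6.91 ± 4.32 CPM in monocytes and 10.3 ± 5.89 CPM in neutrophils; adjusted p 0.356).

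Receptors for the cytokines that the study injects differed at baseline. Of 6 tested, 2 were higher in monocytes and 3 in neutrophils beyond 2-fold. The remaining gene of the list, the IL1 receptor Il1r1, was too low to test. Il6st, the signalling chain of the IL6 receptor, had 143, 148, 114, 158 and 77.3 CPM in the monocyte libraries, against 0.236, 0, 0.563, 2.77 and 0.342 CPM in the neutrophil libraries. Its partner Il6ra was slightly higher in neutrophils (250.4 ± 18.03 CPM in monocytes and 327 ± 54.5 CPM in neutrophils; log2 fold change -0.38 ± 0.12), with a change to 0.24 under total-count scaling. For TNF, Tnfrsf1b was higher in monocytes (1139.5, 1491, 1563, 1444 and 1585 CPM in the monocyte libraries, against 509.7, 616, 549.8, 585 and 734 CPM in the neutrophil libraries; 1.27 ± 0.12) and Tnfrsf1a was higher in neutrophils (299 ± 38.6 CPM in monocytes and 1115 ± 178 CPM in neutrophils; -1.90 ± 0.13). For IL1, the decoy receptor Il1r2 had 15.0, 7.60, 2.58, 2.32 and 3.18 CPM in the monocyte libraries, against 1768, 1399, 1487, 915 and 1163 CPM in the neutrophil libraries (-7.76 ± 0.47), and the accessory chain Il1rap was also higher in neutrophils (22.3 ± 4.67 CPM in monocytes and 457 ± 165 CPM in neutrophils; -4.35 ± 0.26).

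Interferon-stimulated genes were split nearly evenly, with 10 of 33 higher in monocytes and 11 in neutrophils beyond 2-fold (median log2 fold change 0.00). Mx1, an antiviral GTPase, had 69.5, 109, 86.3, 121 and 63.6 CPM in the monocyte libraries, against 0.471, 0.268, 0, 0 and 0.684 CPM in the neutrophil libraries. Ifi207 (375 ± 27.1 CPM in monocytes and 16.1 ± 11.6 CPM in neutrophils) and the nucleic acid sensor Zbp1 (154 ± 22.5 CPM in monocytes and 29.2 ± 6.30 CPM in neutrophils; 2.41 ± 0.17) were higher in monocytes. Slfn4 had 81.5, 74.6, 90.7, 99.3 and 31.4 CPM in the monocyte libraries, against 1998, 1967, 2470.1, 2467 and 2841 CPM in the neutrophil libraries (-4.96 ± 0.27). Ifitm1 (5.54 ± 1.29 CPM in monocytes and 588 ± 115 CPM in neutrophils; -6.71 ± 0.20), viperin, Rsad2 (55.0 ± 7.21 CPM in monocytes and 563 ± 111 CPM in neutrophils; -3.36 ± 0.16), and Oasl1 (23.6 ± 9.42 CPM in monocytes and 192 ± 34.7 CPM in neutrophils; -3.02 ± 0.29) were higher in neutrophils. Members of the same response were thus several-fold apart in both directions, while its regulator Irf7 averaged 525 ± 67.3 CPM in monocytes and 432 ± 64.9 CPM in neutrophils (adjusted p 0.0577; called higher in monocytes under several alternatives). With total-count scaling the neutrophil count was 7.

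The machinery of protein synthesis was higher in monocytes. Of 80 cytosolic ribosomal protein genes, 57 were higher in monocytes and 0 in neutrophils beyond 2-fold (median log2 fold change 1.68). At any size, 74 were higher in monocytes and 1 in neutrophils. Rpl3 had 787, 725, 795, 677 and 856 CPM in the monocyte libraries, against 67.1, 30.6, 38.6, 34.9 and 49.3 CPM in the neutrophil libraries, a log2 fold change of 4.12 ± 0.20. Ribosomal protein genes have many processed pseudogenes, and the handling of reads that match several genes is not given in the sources used here, so single values are uncertain.

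Of 23 tested ribosome biogenesis genes, 21 were higher in monocytes and 1 in neutrophils beyond 2-fold (median log2 fold change 3.11). The nucleolar chaperone Npm1 had 222, 217, 218, 248 and 265 CPM in the monocyte libraries, against 14.6, 13.9, 8.73, 27.7 and 9.92 CPM in the neutrophil libraries (3.96 ± 0.25). The exception was Polr1a, the large subunit of RNA polymerase I, with 28.04, 22.03, 26.0, 28.6 and 20.6 CPM in the monocyte libraries, against 81.5, 115, 147, 94.5 and 78.0 CPM in the neutrophil libraries (-2.04 ± 0.20, adjusted p beyond 2-fold 4.90e-05). All 23 genes had groups that did not overlap, beside 59.4% of all tested genes.

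Energy metabolism differed by pathway. Of 41 nuclear genes of the respiratory chain, 16 were higher in monocytes and 0 in neutrophils beyond 2-fold (median log2 fold change 0.97), and of 16 citrate cycle genes 5 and 0 (median 0.85). Cytochrome c, Cycs, averaged 26.6 ± 1.11 CPM in monocytes and 4.43 ± 0.566 CPM in neutrophils (2.58 ± 0.26) and the complex I subunit Ndufa9 81.0 ± 15.7 CPM in monocytes and 11.9 ± 5.64 CPM in neutrophils (2.75 ± 0.29). Idh3a, a subunit of isocitrate dehydrogenase, averaged 45.2 ± 6.11 CPM in monocytes and 0.747 ± 1.09 CPM in neutrophils. Mdh2 was the 1 citrate cycle gene that was higher in neutrophils at any size (-0.78 ± 0.12). With total-count scaling that call was lost and the monocyte counts became 26 and 10.

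Glycolysis ran the other way, with 2 of 21 genes higher in monocytes and 9 in neutrophils beyond 2-fold (median log2 fold change -0.81). The glucose transporter Slc2a3 had 3.42, 5.03, 5.31, 7.78 and 4.06 CPM in the monocyte libraries, against 1361, 1368, 1391, 1358 and 1056 CPM in the neutrophil libraries, a log2 fold change of -8.01 ± 0.20. Hexokinase 3, Hk3 (88.7 ± 23.6 CPM in monocytes and 924 ± 161 CPM in neutrophils; -3.38 ± 0.18), the regulatory enzyme Pfkfb4 (243 ± 20.9 CPM in monocytes and 1072 ± 50.4 CPM in neutrophils; -2.14 ± 0.09) and pyruvate kinase, Pkm (1051 ± 105 CPM in monocytes and 3185 ± 292 CPM in neutrophils; -1.60 ± 0.10), were higher in neutrophils. The neutrophil count was 5 with total-count scaling, which ended the call for Pkm.

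Of 22 tested cell cycle genes, 6 were higher in monocytes and 1 in neutrophils beyond 2-fold, beside 23.8% and 17.9% of all tested genes. The monocyte count thus lay near the share over all genes. Mcm3, part of the replicative helicase, had 113, 36.1, 46.1, 26.6 and 35.9 CPM in the monocyte libraries, against 9.19, 0, 0.844, 0.277 and 0 CPM in the neutrophil libraries. Hmgb2, a chromatin protein, was higher in neutrophils (60.8 ± 16.0 CPM in monocytes and 283 ± 30.4 CPM in neutrophils; -2.22 ± 0.17). Top2a had 77.4, 20.7, 10.9, 9.43 and 0 CPM in the monocyte libraries, against 49.5, 15.55, 0.281, 1.11 and 3.76 CPM in the neutrophil libraries, and Mki67 had 54.4, 13.4, 16.6, 12.7 and 4.95 CPM in the monocyte libraries, against 63.8, 51.5, 34.6, 18.6 and 15.4 CPM in the neutrophil libraries. In Mcm3, Top2a and Mki67, library 1 was the highest library in both cell types, and the groups overlapped for Top2a and Mki67. The count for monocytes was 10 without neutrophil library 1. Without monocyte library 1, Mki67 was called higher in neutrophils, with a log2 fold change of -1.56, against -0.85 with it, and the log2 fold change of Top2a was -0.39. Without neutrophil library 1 that of Top2a was 2.17, against 0.74 with all libraries (adjusted p 0.578), and with no filter on low counts Top2a was called higher in monocytes (0.91, adjusted p 0.0346).

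Among 19 tested genes of the BCL2 family and cell survival, 4 were higher in each cell type beyond 2-fold, beside 23.8% and 17.9% of all tested genes. The pro-survival genes were themselves split, with Bcl2 higher in monocytes (5.88, 19.97, 17.1, 14.1 and 16.4 CPM in the monocyte libraries, against 2.59, 0, 3.94, 1.11 and 0.342 CPM in the neutrophil libraries) and Mcl1, on which neutrophil survival depends, higher in neutrophils (167, 179, 158, 199 and 196 CPM in the monocyte libraries, against 591, 704, 821, 714 and 796 CPM in the neutrophil libraries; -2.01 ± 0.11). The pro-apoptotic genes Bax (83.0 ± 5.53 CPM in monocytes and 27.9 ± 10.998 CPM in neutrophils; 1.57 ± 0.25) and Bid (109 ± 15.9 CPM in monocytes and 501 ± 41.1 CPM in neutrophils; -2.20 ± 0.12) were likewise in opposite directions. The neutrophil count was 2 with total-count scaling, with no filter on low counts, with DESeq2 and without monocyte library 5.

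Genes of lipid mediators leaned to neutrophils, with 3 of 17 higher in monocytes and 7 in neutrophils beyond 2-fold (median log2 fold change -0.73). Alox5, the first enzyme of leukotriene synthesis, had 12.04, 15.7, 17.0, 20.9 and 23.4 CPM in the monocyte libraries, against 1033, 1053, 958, 709 and 916 CPM in the neutrophil libraries (-5.71 ± 0.19). Pla2g7, which degrades platelet-activating factor, averaged 637 ± 91.5 CPM in monocytes and 2543 ± 166 CPM in neutrophils (-1.996 ± 0.11). Hpgd, which inactivates prostaglandins, had 125, 235, 238, 197 and 287 CPM in the monocyte libraries, against 0, 0, 0.281, 3.60 and 0 CPM in the neutrophil libraries.

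Immediate-early genes, which cells also induce during tissue handling, were higher in neutrophils. Of 18 tested, 2 were higher in monocytes and 13 in neutrophils beyond 2-fold (median log2 fold change -2.90). The phosphatase Dusp1 had 15.9, 13.3, 20.3, 17.4 and 20.2 CPM in the monocyte libraries, against 2817, 2630.5, 3567, 2984 and 2933 CPM in the neutrophil libraries (-7.42 ± 0.16). Fos had 20.4, 16.2, 9.12, 29.6 and 14.5 CPM in the monocyte libraries, against 144, 147, 387, 285 and 211 CPM in the neutrophil libraries (-3.71 ± 0.34). Junb (248 ± 36.5 CPM in monocytes and 2068 ± 474 CPM in neutrophils; -3.06 ± 0.17), Btg2 (224 ± 37.1 CPM in monocytes and 969.7 ± 161 CPM in neutrophils; -2.12 ± 0.14) and Zfp36, which destabilises cytokine transcripts (83.7 ± 26.0 CPM in monocytes and 677 ± 159 CPM in neutrophils; -3.02 ± 0.23), were also higher in neutrophils. Nr4a1, which Ly6C-low monocytes need, was 1 of the 2 exceptions, with 707, 927, 1080.0, 652 and 814 CPM in the monocyte libraries, against 138, 107, 152, 186 and 218 CPM in the neutrophil libraries (2.39 ± 0.19). Klf4, described above, was the other. The part of handling in these levels was not tested.

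NF-kB subunits and inhibitors divided 3 to 3 among 16 genes, beside 23.8% and 17.9% of all tested genes. Nfkb1 was higher in monocytes (351 ± 49.1 CPM in monocytes and 111 ± 19.7 CPM in neutrophils; 1.65 ± 0.14) and Rela (99.9 ± 11.7 CPM in monocytes and 279.8 ± 37.2 CPM in neutrophils; -1.48 ± 0.12) and Nfkbiz (70.3 ± 16.2 CPM in monocytes and 270.2 ± 56.3 CPM in neutrophils; -1.94 ± 0.18) were higher in neutrophils. The call for Rela was lost with total-count scaling and with no filter on low counts, and with total-count scaling 5 of the genes were higher in monocytes. Of 24 genes of actin and migration, 1 was higher in monocytes and 10 in neutrophils beyond 2-fold (median log2 fold change -0.94). The bundling protein Lcp1 had 1974, 2017, 1877, 1760.4 and 1909 CPM in the monocyte libraries, against 11767, 11423, 11331, 11184 and 12455 CPM in the neutrophil libraries (-2.61 ± 0.08), and the severing protein Gsn averaged 269 ± 32.9 CPM in monocytes and 1483 ± 220.3 CPM in neutrophils (-2.46 ± 0.13). Tmsb10, a binder of monomeric actin, was the exception (419 ± 82.1 CPM in monocytes and 13.8 ± 4.1996 CPM in neutrophils; 4.92 ± 0.23). With total-count scaling 3 of these genes were higher in each cell type.

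A few genes took a large part of the counts, a share that also depends on gene length. In monocytes Lyz2 took 2.93% ± 0.356 of the counts, against 0.579% ± 0.225 in neutrophils (SD, n = 5 each). In neutrophils S100a8 took 1.68% ± 0.266 and S100a9 took 1.63% ± 0.254, against under 0.001% each in monocytes. Actb took 0.879% ± 0.047 in monocytes and 1.36% ± 0.140 in neutrophils. Gm10800, a predicted gene with 1169, 1962, 1126, 4923 and 712 CPM in the monocyte libraries, against 3831, 24324, 15729, 10763 and 8269 CPM in the neutrophil libraries, was called higher in neutrophils although its libraries overlapped, and DESeq2 did not call it beyond 2-fold.

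Over all genes, the largest differences in favour of monocytes included the membrane-spanning Ms4a family, of which Ms4a6b and Ms4a6c are also among the monocyte markers above. Ms4a4c had 432, 386, 343, 426 and 411 CPM in the monocyte libraries, against 0, 0, 0, 0 and 0 CPM in the neutrophil libraries and was at least 474-fold higher in monocytes. Ms4a6b (726 ± 63.5 CPM in monocytes and 0.193 ± 0.3004 CPM in neutrophils), Ms4a6c (692 ± 38.1 CPM in monocytes and 0.0942 ± 0.211 CPM in neutrophils) and Ms4a4a (343 ± 19.8 CPM in monocytes and 0.110 ± 0.151 CPM in neutrophils) followed the same pattern. Reads of Ms4a6c and of BE692007 on the opposite strand (129 ± 22.6 CPM in monocytes and 0 ± 0 CPM in neutrophils) cannot be told apart, since 53.1% of the annotated exon bases of Ms4a6c overlap and the strand setting is not given in the sources used here. Lgals1, galectin 1, averaged 223 ± 68.8 CPM in monocytes and 0.0536 ± 0.120 CPM in neutrophils. In favour of neutrophils, the chitinase-like Chil1 (0.0546 ± 0.0747 CPM in monocytes and 1221 ± 375 CPM in neutrophils), the whey-acidic-protein family member Wfdc21 (0.0274 ± 0.0612 CPM in monocytes and 656 ± 248 CPM in neutrophils) and the aspartic protease Asprv1 (0.0544 ± 0.122 CPM in monocytes and 718 ± 72.9 CPM in neutrophils) stood at the top beside the granule genes described above. The cystatin-family genes Stfa2l1 (0 ± 0 CPM in monocytes and 256 ± 24.8 CPM in neutrophils) and Cstdc4 (0 ± 0 CPM in monocytes and 182 ± 43.3 CPM in neutrophils) were at 0 in all monocyte libraries, and their close paralogs make the values of single members uncertain. Chil1, Wfdc21 and Stfa2l1 are themselves members of the granule list above.

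The other 12 cell types sorted after PBS (66 libraries in all with these 10) show which of the 2 cell types departs from the rest. For each gene called beyond 2-fold, the median of the other 12 types was placed nearer to monocytes or nearer to neutrophils. Of the 2610 genes higher in monocytes, 2049 (78.5%) had the other types nearer to monocytes, and in 1872 (71.7%) neutrophils were the lowest of the 14 types, beside 26.9% of all 17153 genes with a level. Monocytes were the highest of the 14 types in 287 genes (11%), beside 4.01% of all genes. Of 1963 genes higher in neutrophils, 1773 (90.3%) had the other types nearer to monocytes, and neutrophils were the highest type in 1564 (79.7%), beside 18.4% of all genes. Because the genes were chosen for this difference, these shares are descriptions. With total-count scaling 418 of the genes higher in neutrophils had the other types nearer to neutrophils, against 190 with the composition correction.

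By list, the mean log2 CPM of ribosome biogenesis genes was 5.35 in monocytes and 2.34 in neutrophils, and 5.23 to 6.53 in the other 12 types. Citrate cycle genes had 7.31 in monocytes and 5.65 in neutrophils, and 7.07 to 7.61 in the other types. Neutrophils were thus the lowest of the 14 types for both lists and monocytes lay within the range of the other types. Granule genes had 4.36 in monocytes and 9.12 in neutrophils, against at most 4.55 in the other types. For class II genes, monocytes with 7.39 stood below the dendritic cells labelled DC.8+ with 10.1 and above neutrophils with 2.03. The interferon-stimulated genes were highest in monocytes (7.19) and neutrophils (6.98) of all 14 types.

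**Figure D5:**
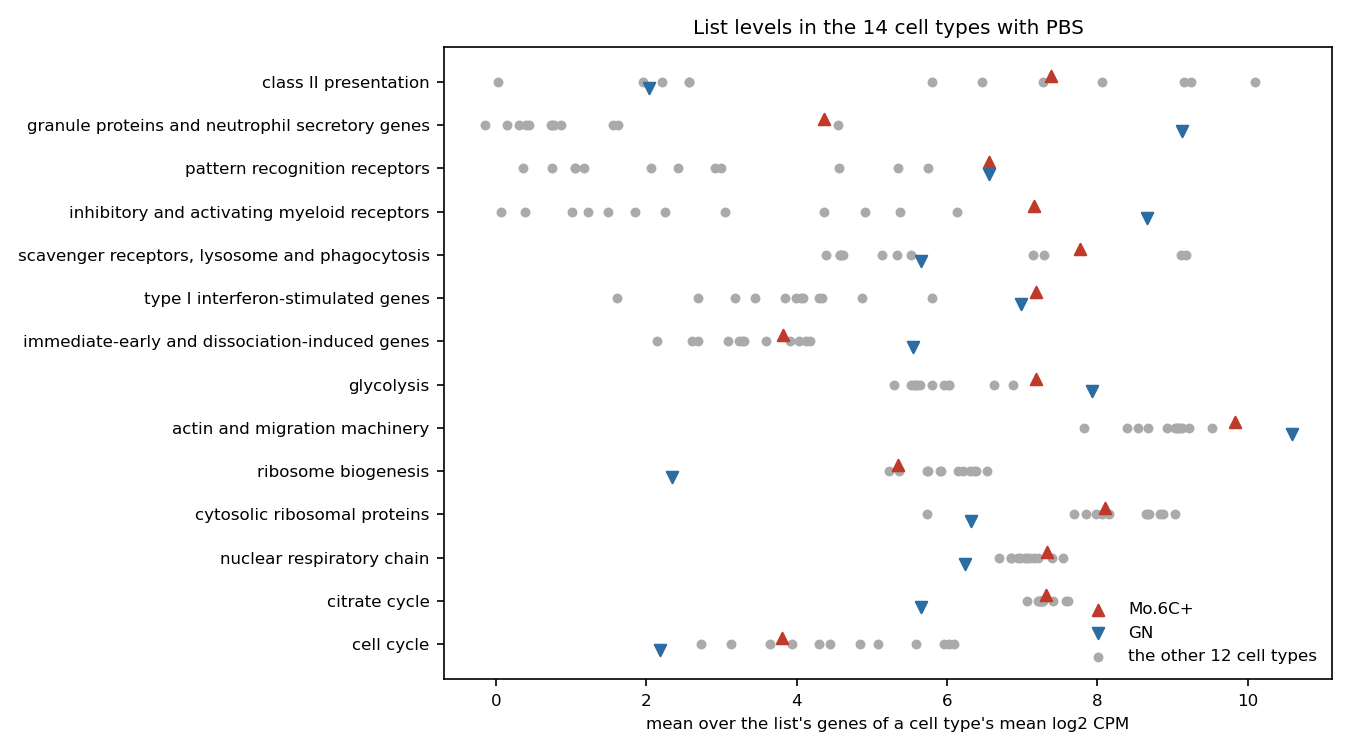
Mean log2 CPM of each list's genes (horizontal axis) in Mo.6C+ and GN and in the other 12 cell types with PBS, 1 row per list. GN lies below all other types for ribosome biogenesis, citrate cycle and respiratory chain genes and above all of them for granule genes, while Mo.6C+ and GN both lie above the other 12 types for pattern recognition receptors, paired receptors, interferon-stimulated genes, glycolysis and actin genes.

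The study's 18 libraries of the same cell types after IL1b, IL6 or TNFa, 3 per cell type and cytokine, share no library with the comparison above. They show in how many genes the same direction was called again. Calls in these libraries took an adjusted p below 0.05 at any size, without the 2-fold limit, so the size of a difference may have changed. Over the mean of the 3 cytokines, 39.3% of 12951 tested genes were higher in monocytes and 33.0% in neutrophils. Of the 2596 genes higher in monocytes beyond 2-fold with PBS that were tested, 2404 (92.6%) were again higher in monocytes, and of the 1945 higher in neutrophils, 1845 (94.9%) were again higher in neutrophils. By cytokine, these shares were 79.9% and 86.8% after IL1b, 77.9% and 87.3% after IL6 and 77.1% and 81.5% after TNFa. Each of these contrasts held only 3 libraries per cell type, fewer than the mean of the 3 cytokines. In all, 15 genes of the first group and 5 of the second were called in the opposite direction over the mean of the cytokines. The genes named by the rule among these were Ly6c2, with 2.34 after PBS and -0.37 ± 0.15 after the cytokines, Cybb, with 2.35 and -0.29 ± 0.10, and Jun, part of the AP-1 factor, with -2.93 and 0.58 ± 0.19 (log2 fold change with its standard error; adjusted p after the cytokines 0.0326, 0.0142 and 0.00992). The difference between the PBS and the cytokine contrasts was not itself tested.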

How the data were processed

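RNA was measured in 209 libraries, of which 10 entered the main comparison. Per the submitters' processing notes, reads were handled with STAR 2.7.3a, featureCounts and the mm10 genome, and the authors deposited whole-number counts per gene symbol. Its annotation, strandedness and multi-mapping options: not given in the sources used here.

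Counts were tested with edgeR 4.0.16 in R 4.3.3, using its quasi-likelihood test after filterByExpr and TMM composition scaling, with p-values adjusted by Benjamini-Hochberg over all genes tested and a threshold of 0.05. A second test asked for a difference beyond 2-fold (glmTreat). CPM were scaled by the TMM library sizes. Where a group was at 0, its floor was 3 counts per library, which covers counting error only. DESeq2 1.42.0, other scalings and filters, a replicate block and leaving out each library were tried as alternatives. The procedure was run on simulated data in which a small set of genes was changed, evenly up and down. That run does not cover a comparison in which most genes differ and the composition factors are far apart. The place among 14 cell types used 66 PBS libraries scaled together, and the 18 cytokine libraries were fitted on their own.

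The comparison, its 28 gene lists and 14 lists of markers were chosen with earlier results of these data known. The text names a set of lineage genes, the 12 largest non-overlapping differences in each direction among genes that reached 100 CPM on average in one cell type, up to 5 genes per list and direction with the smallest adjusted p beyond 2-fold, list members that went against their list or did not pass, markers, and the 10 genes with the largest share of counts.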

Additional observations from a re-analysis of the deposited data

Results flagged for a closer look

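A library stood apart from the other 4 of its cell type in 40 of 332 gene and cell type combinations tested (12.05%). The limit flags about 5.0% of groups of 5 only for normally distributed values. CPM are skewed at low counts, and the genes were chosen for the text and partly move together. The share of 12.05% is therefore a description and not a test against 5.0%. The number after each gene is the gap between that library and its nearest neighbour divided by the range of the 5 libraries, with 0.71 as the limit. Another 42 combinations, in which no library reached 1 CPM, were not tested.

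Monocyte library 1 was far above the others for Csf3r (0.803), Prtn3 (0.883), Mcm3 (0.774), Mpo (0.988), Elane (0.989), Pkm (0.803), Mki67 (0.765), Top2a (0.732) and Rrm2 (0.862), and far below the others for Ciita (0.737), Hmox1 (0.7104) and Cd209a (0.756). Monocyte library 2 was far below the others for Ly6c1 (0.794). Monocyte library 3 was far above the others for Fpr1 (0.775). Monocyte library 4 was far above the others for Csf2rb (0.816), S100a4 (0.718), Nlrp12 (0.862) and Ccl6 (0.746), and far below the others for Pla2g7 (0.764). Monocyte library 5 was far above the others for Ms4a6b (0.771) and Slc40a1 (0.747), and far below the others for Clec4e (0.795) and Fcgr1 (0.770). Neutrophil library 1 was far above the others for Cebpe (0.746), Mcm3 (0.908), Cyba (0.748), Pkm (0.771) and Rrm2 (0.749), and far below the others for Csf2rb (0.777). Neutrophil library 2 was far above the others for Tgfbr2 (0.759). Neutrophil library 3 was far above the others for Spn (0.754). Neutrophil library 4 was far above the others for S100a10 (0.879), Il6st (0.797) and Hpgd (0.922). Neutrophil library 5 was far above the others for Klf4 (0.827), H2-Ab1 (0.771), Fcgrt (0.794), Hfe (0.765) and Steap4 (0.783), and far below the others for Slc2a3 (0.904).

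Monocyte library 1 accounted for 9 of the flags on the high side and 3 on the low side, and neutrophil library 1 for 5 on the high side. The highest values of monocyte library 1 lay in primary granule and cell cycle genes, and its lowest in Ciita and Cd209a. No cause was tested.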

How the results depend on the processing

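Of 178 tested genes shown in the text or figures, 22 changed their side of a threshold or a called direction under at least 1 alternative. With total-count scaling Cyba (0.0475), Hmox1 (0.59) and Il6ra (0.24) turned positive, and Cyba and Il6ra are the genes called with the composition correction whose sign changed. Among genes that passed no test, Chil3, Tnf, Top2a and Rrm2 also changed sign under at least 1 alternative, and Hmox1 under several. Leaving out each library gave 4027 to 4323 genes higher in monocytes at any size and 2551 to 2853 beyond 2-fold, and 3338 to 3618 and 1902 to 2028 higher in neutrophils. With total-count scaling 2288 genes were higher in neutrophils at any size and 1269 beyond 2-fold, and 5726 and 3817 were higher in monocytes, of 10985 tested. By list beyond 2-fold, that scaling gave class I 8 in monocytes and 0 in neutrophils, complement 3, interferon-stimulated genes 7, glycolysis 5 and BCL2 family 2 in neutrophils, respiratory chain 26, citrate cycle 10 and NF-kB 5 in monocytes, and actin 3 in each cell type. It also gave 418 neutrophil genes with the other types nearer to neutrophils, and 2 and 54 genes of monocytes and neutrophils in the opposite direction after the cytokines. With DESeq2 size factors class I in neutrophils was 0 and the opposite neutrophil genes were 8. With no filter on low counts, monocytes had 8 granule, 6 complement and 2 actin genes and 7 opposite genes, and neutrophils 0 class I, 2 BCL2 family and 5 actin genes. The filter at 1 CPM in 5 libraries gave 0 class I genes in neutrophils and 5 complement genes in monocytes. The fit of all 28 monocyte and neutrophil libraries gave 8 granule and 6 complement genes in monocytes, and DESeq2 gave 0 class I, 2 BCL2 family and 6 actin genes in neutrophils. Leaving out 1 library gave 0 to 1 class I, 2 to 4 BCL2 family and 4 to 8 opposite genes in neutrophils, and 5 to 10 cell cycle, 1 to 2 actin and 3 to 5 complement genes in monocytes. The cause of these shifts was not tested.

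Whether replicate numbers pair the libraries is not settled by these data. Deviations of same-numbered libraries correlated at -0.02 to 0.13 over 7285 genes, against -0.09 to 0.04 for different numbers. The highest value, 0.13, was that of the libraries numbered 1. Counted from the monocyte side only, 2 of 5 monocyte libraries correlated best with their own number. The fit with the replicate block called 7379 genes at any size, against 7625 without it, and 4499 beyond 2-fold, against 4575. With the block Mki67 was called higher in neutrophils (-1.07) and H2-K1 higher in monocytes (0.26, adjusted p 0.0406), and Cd177 was not called (-0.88, adjusted p 0.0622). Pairs of libraries of 1 cell type differed by more than counting noise (chi-square per degree of freedom 7.27 to 35.5 over 20 pairs). Genes near 0 in one cell type are limited by depth, with a floor of 0.417 CPM in monocytes and 0.843 CPM in neutrophils.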
